A study of Mus musculus with 8 samples.

Results

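The late cornified envelope (Lce) genes and 18 other genes of epidermal differentiation were followed in forepaw skin of WT and PAC1R KO mice after an injection of PACAP. The members were chosen by gene name, as every probe whose name begins with Lce together with the probes for Sprr1a, Sprr1b, Sprr3, Sprr4, Lor, Ivl, Flg, Flg2, Hrnr, Rptn, Tchhl1, Crct1, Cnfn, Lelp1, Kprp, Casp14, Tgm1 and Tgm3. This gave 38 genes on 47 of the 39429 probes, out of 29608 gene names, and all of the 18 named genes had a probe. They fall into 14 Lce1 genes, 6 Lce3 genes, 4 Sprr genes, 5 fused-type S100 genes, 6 other envelope genes and 3 enzymes. PACAP is a neuropeptide that raises cyclic AMP, and PAC1R, encoded by Adcyap1r1, is its selective receptor. The study also lists VPAC1R and VPAC2R as receptors of PACAP, shared with the peptide VIP. WT mice were male C57BL/6 and KO mice were male Adcyap1r1 -/-, both anaesthetised and aged 9 to 10 weeks. Each footpad received 5 µL of saline with albumin, either alone (vehicle) or with PACAP at 1e-07 mol/L, and skin was taken at 30 or 60 min. This made 4 comparisons of PACAP with vehicle (WT 30 min, WT 60 min, KO 30 min and KO 60 min) and 8 RNA samples. The methods give 6 mice for each genotype, and which of them entered an RNA sample, or whether RNA was pooled, is not given in the sources used here.

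The cornified envelope is the protein shell that replaces the plasma membrane of keratinocytes as they die at the skin surface. Transglutaminases cross-link loricrin, involucrin, the small proline-rich (Sprr) proteins and the late cornified envelope proteins into this shell, while filaggrin packs the keratin filaments inside it. Most of these genes lie side by side in the epidermal differentiation complex, which also holds the fused-type S100 genes. In human skin, LCE1 genes are known from healthy epidermis, whereas LCE3 genes are known to be induced when the barrier is disrupted and in psoriasis.

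Each comparison used 2 Agilent two-colour arrays, and the dyes of vehicle and PACAP RNA were exchanged between them. Both arrays of a comparison therefore count as 1 replicate, no comparison has a replicate between animals, and this small number sets the precision. The WT comparisons shared 1 slide and the KO comparisons a second one, which means that slide and genotype cannot be told apart. The targeted gene does not check the labels here. Its single probe gave log2 levels of 8.27 to 8.76 in the 4 WT samples and of 7.91 to 8.56 in the 4 KO samples, above background throughout, and the sources used here do not say whether the deletion covers it. Ratios below are PACAP over vehicle. A probe was counted as changed when the mean of both arrays was at least 2.0-fold or at most 0.5-fold, both arrays pointed one way and the scanner software's p was below 0.01 on each. Levels are log2 of the normalised signal and are compared only between samples of the same probe. For the 47 member probes the median difference between both array readings of an RNA sample lay between 0.04 and 0.38, with a median of 0.12 over probes.

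On the chromosome, the 34 members of the complex spanned 1392 kb of chromosome 3 by the probe positions in the files (mm9, chr3:91884206-93275887). The 6 Lce3 probes occupied 68.0 kb of it (chr3:92729210-92797167), with Lce1l on the one side and Crct1 and Lce1m on the other. Casp14, Cnfn, Tgm1 and Tgm3 lie on chromosomes 10, 7, 14 and 2. No annotation of this build was used here, so the exon or UTR under a probe is not stated. RefSeq promoters (GRCm38.p6) were matched by symbol for 35 of the 38 genes, all except Crct1, Kprp and Lce1f. The 100 bases before the start site are shown for the Lce3 genes, which carry the main difference in the ratios, and for 2 Lce1 genes as the contrast. Capitals mark TTGTGAAA, GATAAAA and TATAAAA on either strand.
Lce3a, chr3:92926231-92926330, minus strand: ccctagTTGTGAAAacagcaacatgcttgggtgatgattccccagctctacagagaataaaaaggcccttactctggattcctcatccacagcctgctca
Lce3b, chr3:92932879-92932978, plus strand: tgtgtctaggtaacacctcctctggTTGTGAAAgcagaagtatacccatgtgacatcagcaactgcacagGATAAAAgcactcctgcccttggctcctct
Lce3c, chr3:92944386-92944485, plus strand: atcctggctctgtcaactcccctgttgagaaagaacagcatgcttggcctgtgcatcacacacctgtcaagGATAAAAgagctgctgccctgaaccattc
Lce3d, chr3:92957290-92957389, plus strand: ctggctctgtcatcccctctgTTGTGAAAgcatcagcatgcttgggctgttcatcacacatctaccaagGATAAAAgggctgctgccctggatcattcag
Lce3e, chr3:92966961-92967060, plus strand: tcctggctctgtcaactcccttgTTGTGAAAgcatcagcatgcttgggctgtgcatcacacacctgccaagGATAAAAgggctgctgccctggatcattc
Lce3f, chr3:92992117-92992216, plus strand: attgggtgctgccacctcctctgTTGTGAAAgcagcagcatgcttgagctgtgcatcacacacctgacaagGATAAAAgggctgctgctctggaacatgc
Lce1d, chr3:92687211-92687310, minus strand: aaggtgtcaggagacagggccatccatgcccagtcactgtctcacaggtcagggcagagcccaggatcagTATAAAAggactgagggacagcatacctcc
Lce1h, chr3:92765066-92765165, minus strand: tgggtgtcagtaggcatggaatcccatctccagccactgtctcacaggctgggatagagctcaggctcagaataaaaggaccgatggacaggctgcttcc

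The Lce3 windows shared letters that the Lce1 windows lacked. TTGTGAAA stood in 5 of 6 Lce3 promoters and in 0 of 13 Lce1 promoters, against 0.408% of all 32851 RefSeq promoters in windows of the same length. GATAAAA was found in 5 of 6 Lce3 promoters and 0 of 13 Lce1 promoters, against 1.02% of all. Both stretches were picked after the sequences were seen, and a match is only a description of the letters. TATAAAA was found in 2 Lce1 promoters, in 0 Lce3 promoters and in those of Lor, Sprr1a, Sprr1b, Sprr3, Flg and Hrnr (2.18% of all). TGANTCA, the AP-1 motif, was found in 0 Lce promoters and in those of Lor, Flg2, Rptn and Tchhl1 (2.73% of all). CACCC, the core of KLF motifs, was found in 2 Lce3 promoters, 5 Lce1 promoters and 27.2% of all. Within the Lce3 family the windows were 45% to 90% identical by edit distance (median 66% over 15 pairs), and within Lce1 they were 45% to 90% identical (median 64% over 78 pairs). Between both families the range was 40% to 54%.

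Some probes of neighbouring genes are nearly alike, and this limits how far their readings can be taken as separate. Of all pairs of probes for different member genes, 4 were at least 80% identical over an overlap of 30 bases or more. They were Lce3b with Lce3c (54 of 60 bases), Lce3c with Lce3d (38 of 41), Lce3b with Lce3d (37 of 41) and Lce1h with Lce1i (56 of 60). The Lce3a, Lce3e and Lce3f probes had no such partner. A stretch of 30 bases from the probes of Lce3b, Lce3c and Lce3d is shown, in which capitals mark the 26 bases that all of them share.
Lce3b: TCTTGTTTTgTCTGATCCTGGAcAccCTTC
Lce3c: TCTTGTTTTaTCTGATCCTGGAgAgtCTTC
Lce3d: TCTTGTTTTgTCTGATCCTGGAgAacCTTC
Cross-hybridisation among Lce3b, Lce3c and Lce3d was not tested, and their values may be one reading in part.

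The Lce3 genes gave the clearest pattern of all members. In KO mice the ratios of Lce3a at both times and of Lce3e at 60 min passed the count rule upwards. The ratio was above 1 for all 6 Lce3 genes at each time in KO mice. In WT mice all 6 ratios were below 1 at 30 min. For Lce3c (0.845 and 1.05) and Lce3d (0.788 and 1.06) the arrays lay on both sides of 1 there. At 60 min in WT mice Lce3a alone passed the rule, while the others lay between 0.953 and 1.09. Each ratio sets 1 PACAP RNA sample against 1 vehicle RNA sample. An effect of PACAP therefore cannot be told apart from a difference between skin samples. The median ratio of the 6 genes was 0.855 (WT 30 min), 1.03 (WT 60 min), 1.67 (KO 30 min) and 1.92 (KO 60 min). Over all 30359 probes above background the medians were 0.967, 0.993, 0.991 and 1.00 in the same order. By the count rule, 0 of 47 member probes were higher in WT at 30 min, against 0.254% of all probes (0.35% in either direction). In WT at 60 min 2 of 47 were higher, against 0.583% of all probes (0.692% in either direction). KO at 30 min also gave 2 of 47, against 0.601% (0.708% in either direction), as did KO at 60 min, against 0.142% (0.292% in either direction). No member probe was lower, against 0.0964%, 0.109%, 0.107% and 0.15% of all probes in the same order of comparisons. The probes called were those of Lce3a and Tchhl1 in WT at 60 min and in KO at 30 min, and those of Lce3a and Lce3e in KO at 60 min.

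Lce3a, the first gene of the Lce3 row, had by far the widest ratios of the 20 Lce genes. In WT mice at 30 min its ratio was 0.596 (0.592 and 0.600 on the arrays), the lowest of all Lce genes although short of the 0.5-fold limit. In WT mice at 60 min it rose 2.95-fold (2.77 and 3.14). It rose 6.24-fold in KO mice at 30 min (6.26 and 6.22) and 9.84-fold at 60 min (10.8 and 9.0). The dye swap thus moved each value by less than the differences between comparisons, but it shows no spread between animals. In vehicle skin the log2 level of Lce3a was 8.88 (WT 30 min), 7.91 (WT 60 min), 7.93 (KO 30 min) and 8.18 (KO 60 min). After PACAP it was 8.29, 9.21, 10.26 and 11.22 in the same order. Both KO PACAP samples stood above the other 6 samples, and the vehicle samples of KO mice lay within the range of the WT vehicle samples. At matched times the vehicle level in KO minus WT was -0.95 at 30 min and 0.27 at 60 min.

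**Figure D1:**
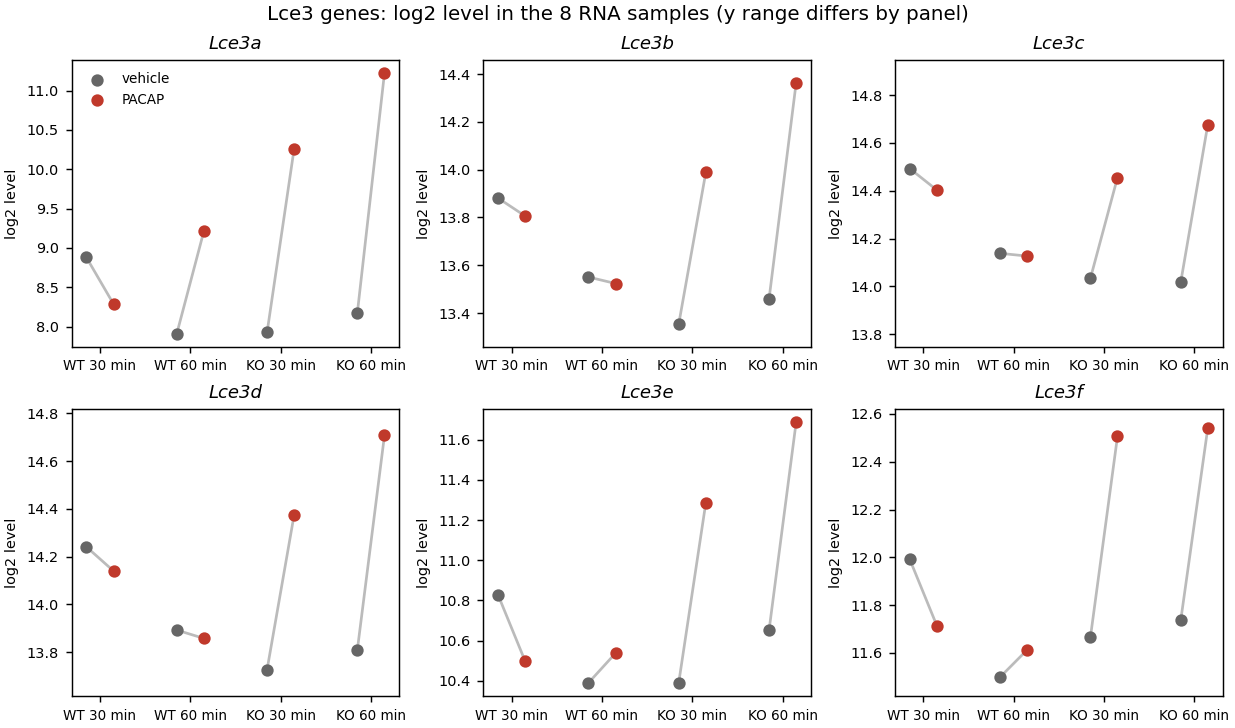
Log2 level (y axis) of the 6 Lce3 genes in the 8 RNA samples (x axis, genotype and time), with vehicle in grey, PACAP in red and a line joining the samples hybridised together; each point is the mean of 2 dye-swap arrays of 1 RNA sample and has no error between animals. In KO mice every PACAP point lies above its vehicle point, by the most for Lce3a, which goes from 7.93 to 10.26 at 30 min and from 8.18 to 11.22 at 60 min.

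Lce3e showed the same order with smaller steps. Its ratio was 0.800 in WT at 30 min, 1.09 in WT at 60 min and 1.88 in KO at 30 min (1.87 and 1.89 on the arrays). At 60 min in KO mice it rose 2.14-fold (2.17 and 2.11). Its level was 10.83, 10.39, 10.39 and 10.65 in vehicle skin of WT 30 min, WT 60 min, KO 30 min and KO 60 min. After PACAP it was 10.50, 10.54, 11.29 and 11.69, so that both KO PACAP samples were again the highest of the 8.

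The remaining 4 Lce3 genes stayed below the 2.0-fold limit in each comparison. Lce3f had ratios of 0.796, 1.07, 1.80 and 1.82 in WT 30 min, WT 60 min, KO 30 min and KO 60 min. Lce3b had ratios of 0.930, 0.986, 1.54 and 1.93, and Lce3d of 0.913, 0.979, 1.56 and 1.90. Lce3c had the smallest ratios in KO mice, with values of 0.944, 0.953, 1.36 and 1.57. The level of Lce3b was 13.35 to 13.88 in the 4 vehicle samples and 13.99 and 14.36 in the KO PACAP samples, against 13.81 and 13.52 in the WT PACAP samples. Lce3c was the exception among the 6, because its KO PACAP level at 30 min (14.46) did not exceed the WT vehicle level at 30 min (14.49). In the other 5 genes both KO PACAP samples stood above the remaining 6 samples, a pattern found in 599 of 30357 probes (1.97%) and looked for after the values had been seen. For Lce3b and Lce3d, whose probes are nearly alike, the margin at 30 min was small. Their KO PACAP levels were 13.99 and 14.38, against 13.88 and 14.24 in the WT vehicle sample. Both margins were smaller than the median difference between array readings of that probe (0.12 and 0.20). The WT vehicle sample at 30 min was the highest vehicle sample in all 6 genes.

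Whether the PACAP effect differed between genotypes was tested with limma on the 4 comparisons, 2 for each genotype. The SE in this and later limma fits is moderated by eBayes with the spread of all probes. It is not the spread of the named probe alone. The 6 Lce3 probes had the 6 smallest p-values of the 46 member probes that passed the filter on dim probes. Their KO minus WT differences in log2 ratio were 2.56 for Lce3a (SE 0.72), 1.1 for Lce3e (SE 0.23), 0.97 for Lce3f (SE 0.22), 0.87 for Lce3d (SE 0.21), 0.85 for Lce3b (SE 0.21) and 0.62 for Lce3c (SE 0.20). None passed the adjustment over all probes (limma, adjusted p = 0.84 for each). In this fit 0 of 30357 probes (0%) passed it, while 972 (3.2%) and 6 member probes had an unadjusted p below 0.05. With time added as a covariate, which leaves 1 residual degree of freedom, the limma difference of Lce3a passed (2.56, SE 0.36, adjusted p = 0.00256) as 1 of 17 probes (0.056% of all). No other Lce3 probe passed in that fit, where the next adjusted p was 0.56 for Lce3e.

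The Lce1 genes, which lie beside the Lce3 genes, gave no call. Their 14 ratios lay between 0.913 and 1.11 in WT at 30 min, between 0.938 and 1.22 in WT at 60 min, between 0.914 and 1.11 in KO at 30 min and between 0.830 and 1.04 in KO at 60 min. The medians were 0.974, 1.11, 1.00 and 0.928. This holds for all 17 Lce1 probes in the 4 comparisons. The lowest Lce ratio in KO at 60 min was that of Lce1m (0.830), which lies on the far side of the Lce3 row. Over the 8 RNA samples the levels of a Lce1 gene spanned between 0.13 and 0.45 log2 units, while those of a Lce3 gene spanned between 0.66 and 3.31. As a measure of spot brightness only, Lce1 levels lay between 14.45 and 16.37, those of Lce3a between 7.91 and 11.22 and those of Lce3c between 14.02 and 14.68. The part of spot brightness in these spans was not tested. Lce1h had the highest Lce ratio in WT at 30 min (1.11), Lce1k the lowest in WT at 60 min (0.938) and Lce1l the lowest in KO at 30 min (0.914). The genes next to the Lce3 row were not called either. Lce1l had ratios of 0.972, 1.09, 0.914 and 0.888, and Crct1, a cysteine-rich gene of the same complex, of 0.876, 1.02, 1.00 and 0.879 at its brightest probe. Its dimmer probe gave 0.655, 0.884, 1.39 and 0.811, so the probes of Crct1 disagreed in KO at 30 min.

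**Figure D2:**
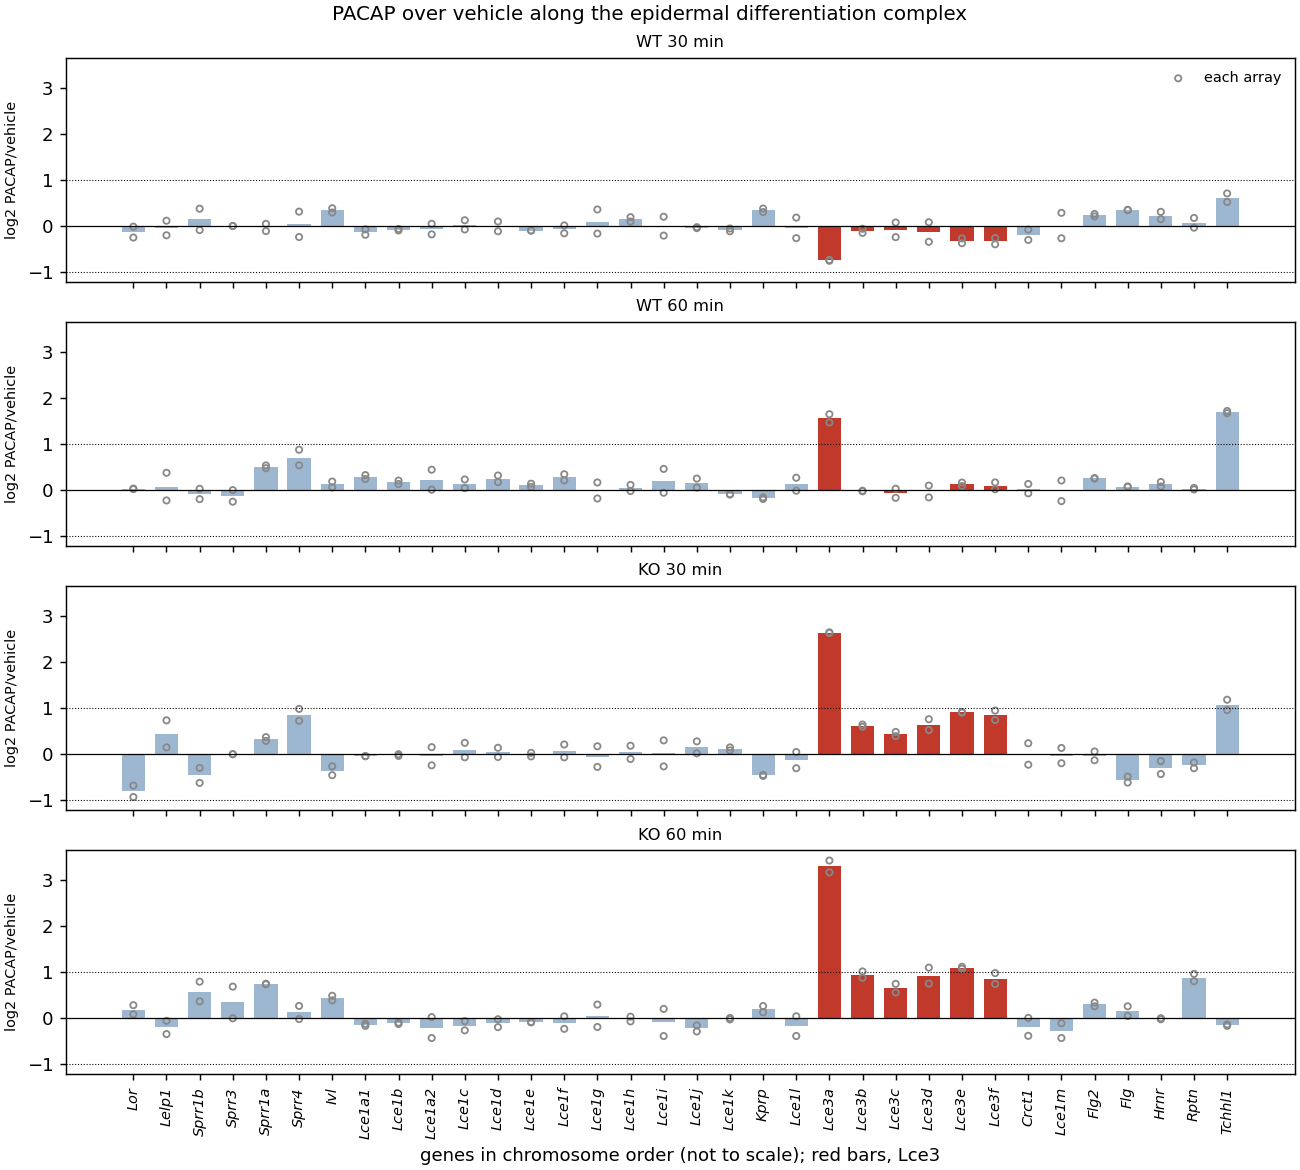
Log2 ratio of PACAP over vehicle (y axis) for the 34 members on chromosome 3 in their order along it (x axis, not to scale), 1 panel for each comparison; bars are the mean of 2 dye-swap arrays at the brightest probe of a gene, circles are each array and dotted lines mark 2.0-fold and 0.5-fold. The red Lce3 bars stand out as a block in both KO panels, with a median of 1.67-fold and 1.92-fold, between Lce1 genes that stay within 0.830-fold and 1.11-fold there.

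Among the Sprr genes, whose proteins are cross-bridges of the envelope, no probe was called. Sprr1a had ratios of 0.978, 1.42, 1.26 and 1.68 in WT 30 min, WT 60 min, KO 30 min and KO 60 min, and its arrays lay within 0.926 and 1.03 in the first and within 1.67 and 1.68 in the last. Its level in vehicle skin was 11.45, 10.81, 10.16 and 11.32, and in PACAP skin 11.44, 11.31, 10.47 and 12.09, so that the KO vehicle samples differed by more than any ratio. Sprr1b had ratios of 1.1, 0.943, 0.726 and 1.5. Sprr4, known to be induced in skin by ultraviolet light, had ratios of 1.03, 1.63, 1.81 and 1.09. Sprr3 was not well above background in either channel on both arrays of any comparison, and no ratio is given for it. In the medians over all members and in the plots by gene order and by class it stands at its listed value.

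Tchhl1 (trichohyalin-like 1) was the only member outside the Lce3 genes that was called. It is a fused-type S100 gene related to trichohyalin, a protein of the inner root sheath of the hair follicle. Its called ratios were 3.24 in WT mice at 60 min (3.29 and 3.18) and 2.10 in KO mice at 30 min (1.94 and 2.27). Its ratio was 1.53 in WT at 30 min and 0.902 in KO at 60 min. The level in vehicle skin was 7.91, 7.84, 7.52 and 9.53 in WT 30 min, WT 60 min, KO 30 min and KO 60 min, and in PACAP skin 8.40, 9.21, 8.34 and 9.42. The KO vehicle sample at 60 min was thus the highest of all 8, above every PACAP sample. Between 30 and 60 min the KO vehicle level differed by 2.01, more than the log2 ratios called (1.70 and 1.07).

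Markers of the hair follicle were called in both comparisons in which Tchhl1 was called, and fewer of them in WT at 30 min. Of 24 hair shaft and inner root sheath genes, the WT comparisons had 3 that rose at 30 min and 15 at 60 min, the KO comparisons had 11 and 0, and none fell. Their median ratios were 1.18, 2.74, 1.94 and 0.735, and in WT at 60 min the ratio was 6.09 for Krt71, 5.71 for Tchh, 5.52 for Krt34 and 5.28 for Krt25, each above background in all 16 channels. Krt26 was also called there, but was above background in 11 of 16 channels, with log2 levels of 6.33 (vehicle) and 7.12 (PACAP), and its ratio is not given. The summed log2 level of the 24 markers was 14.28 to 14.34 in WT vehicle, 14.70 to 15.65 in WT PACAP, 13.84 to 15.99 in KO vehicle and 14.60 to 15.56 in KO PACAP samples, and no marker was at background throughout. Their highest sum (15.99) was that of the KO vehicle sample at 60 min, the sample in which Tchhl1 was also highest. In bulk skin, more cells of a type and more RNA per cell cannot be told apart, and the part of the hair markers in the ratios of Tchhl1, Sprr4 and Lce3a was not tested. The ratios of Sprr4 were 1.03, 1.63, 1.81 and 1.09 beside these medians, and those of Lce3a 0.596, 2.95, 6.24 and 9.84.

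The other fused-type S100 genes encode filaggrin and its relatives, which bind and aggregate keratin filaments. Flg, at its brightest probe, had ratios of 1.27, 1.05, 0.682 and 1.11 in WT 30 min, WT 60 min, KO 30 min and KO 60 min, and its upstream probes gave 0.761 and 0.731 in KO at 30 min. Flg2 had ratios of 1.18, 1.19, 0.975 and 1.23, and Hrnr (hornerin) of 1.17, 1.09, 0.818 and 0.993. Rptn (repetin) had ratios of 1.05, 1.02, 0.845 and 1.85, with 1.95 and 1.75 on the arrays of KO at 60 min. Its level in KO at 60 min was 12.22 with vehicle and 13.09 with PACAP, while both WT samples at 60 min stood at 11.59 and 11.61. At 30 min the WT levels were 12.83 with vehicle and 12.91 with PACAP, above the KO levels of 12.46 and 12.24.

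Among the other envelope genes, Lor (loricrin, the main protein of the envelope) had ratios of 0.912, 1.02, 0.572 and 1.14. Its arrays gave 0.524 and 0.624 in KO at 30 min, so it stayed short of the 0.5-fold limit. The KO vehicle sample at 30 min had the highest Lor level of the 8 (16.05) and the KO PACAP sample at 30 min the lowest (15.22), and the remaining 6 lay between 15.54 and 15.78. Ivl (involucrin, an early scaffold of the envelope) had ratios of 1.27, 1.09, 0.779 and 1.36, and Kprp (keratinocyte proline-rich protein) of 1.27, 0.885, 0.726 and 1.15. Cnfn (cornifelin) had ratios of 1.11, 0.931, 0.784 and 1.04. Lelp1, a late cornified envelope-like proline-rich gene, had ratios of 0.970, 1.05, 1.36 and 0.871 at its brighter probe, on whose arrays KO at 30 min gave 1.66 and 1.11. No enzyme was called. Casp14, the protease that processes filaggrin, had ratios of 1.28, 1.21, 0.801 and 1.01. Tgm1 and Tgm3, the transglutaminases that cross-link the envelope, had ratios between 0.825 and 1.24 at their brightest probes.

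**Figure D3:**
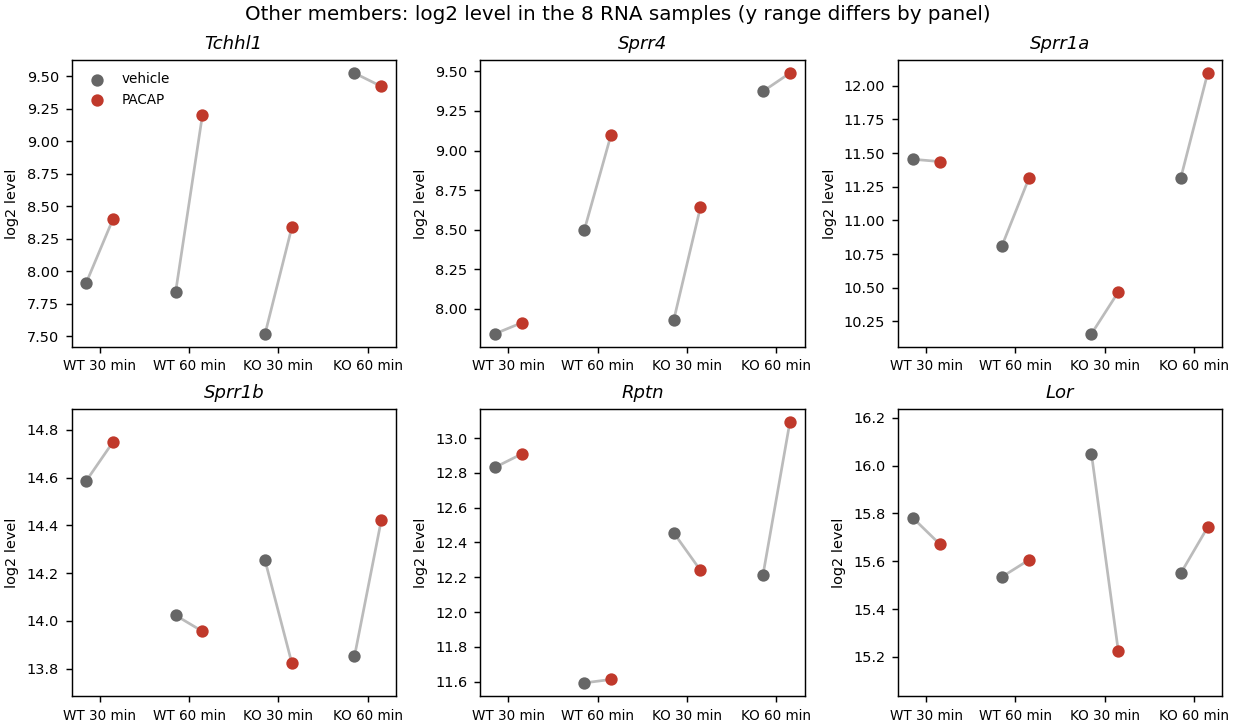
Log2 level (y axis) of Tchhl1, Sprr4, Sprr1a, Sprr1b, Rptn and Lor in the 8 RNA samples (x axis), drawn as in the plot of Lce3 levels; each point is the mean of 2 dye-swap arrays of 1 RNA sample. Vehicle samples of 1 genotype also differ between times, as for Tchhl1, whose KO vehicle level is 7.52 at 30 min and 9.53 at 60 min.

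**Figure D4:**
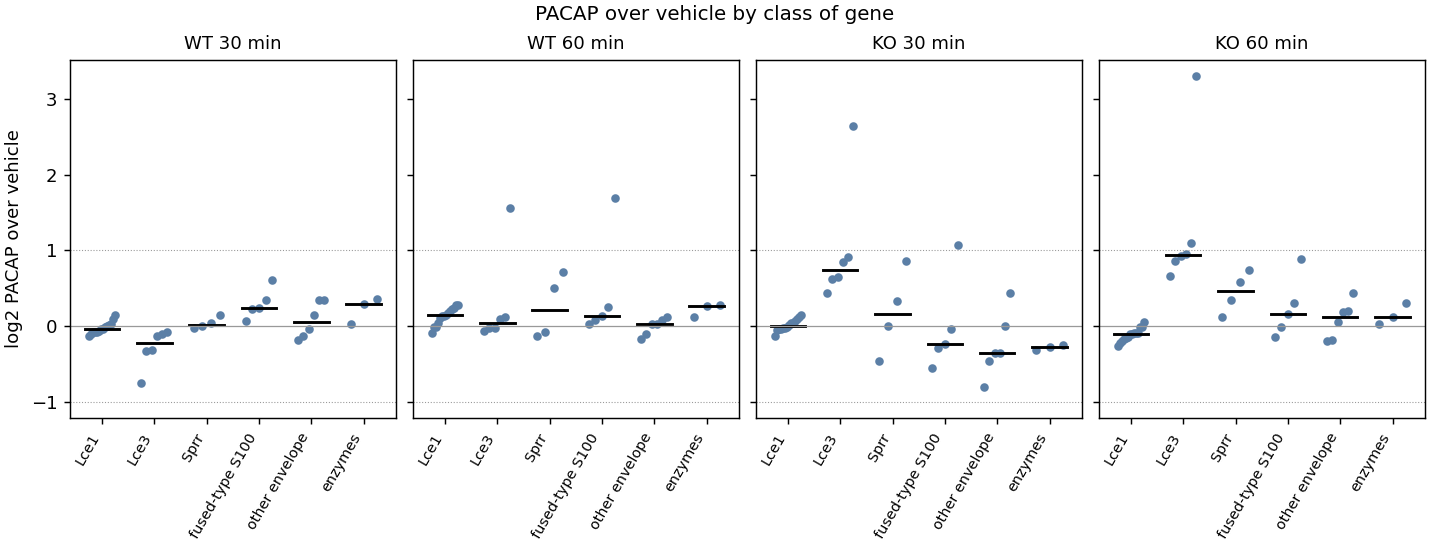
Log2 ratio of PACAP over vehicle (y axis) of the 38 genes by class (x axis), 1 panel for each comparison; points are genes at their brightest probe, black lines are class medians and dotted lines mark 2.0-fold and 0.5-fold. The Lce3 medians are -0.23, 0.04, 0.74 and 0.94, while the envelope genes and enzymes have medians of -0.36 and -0.28 in KO at 30 min.

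In KO mice at 30 min the classes differed in their medians, with no member probe called lower. The medians of the envelope genes (0.782, with Lelp1 at 1.36), the enzymes (0.825) and the fused-type S100 genes (0.845, with Tchhl1 called up at 2.10) were below 1 there, and above 1 in the other 3 comparisons. In the same comparison the median was 1.00 for the Lce1 genes and 0.997 for all members, and the Sprr genes above background had ratios of 1.26 (Sprr1a), 0.726 (Sprr1b) and 1.81 (Sprr4). Of 30 further cornification genes from a fixed list, such as keratins, desmosome proteins and lipid enzymes, 24 had a ratio below 1 in KO at 30 min, with a median of 0.810. Krt1 and Krt10, the keratin pair of differentiated keratinocytes, fell to 0.455-fold and 0.365-fold, and no other gene of that list was called in the 4 comparisons. Of 18 regulators of epidermal differentiation none was called, and their median in KO at 30 min was 0.818. Krt9, the keratin that marks palm epidermis, had a ratio of 0.628 there and was above background in all samples, with log2 levels of 15.03 to 15.70.

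Markers of other cell types are given beside these values. The 10 basal keratinocyte markers had a median ratio of 0.777 in KO at 30 min, with 0 called, and the 8 dermal fibroblast markers of 0.696, with 0 called. Of 16 skeletal muscle markers 5 fell in KO at 30 min (Myh4, Actn3, Myh1, Acta1 and Eno3, with ratios between 0.402 and 0.493) and 2 rose in WT at 30 min (Myh4 at 2.75 and Myh1 at 2.67). Summed over the list, the muscle level was 17.62 to 18.14 in WT vehicle, 18.13 to 18.48 in WT PACAP, 18.05 to 18.22 in KO vehicle and 17.55 to 18.09 in KO PACAP samples. The basal keratinocyte sums were 16.74 to 16.94, 16.97 to 17.16, 16.79 to 17.17 and 16.70 to 17.10, and the fibroblast sums 16.57 to 16.75, 16.64 to 17.19, 16.93 to 17.04 and 16.49 to 17.07, in the same order of groups. The 14 eccrine gland markers had a median of 0.783 in KO at 30 min, where 12 were below 1, and of 0.889, 1.03 and 0.921 in WT 30 min, WT 60 min and KO 60 min, with 0 called. The 9 sebaceous gland markers had a median of 1.5 in WT at 60 min, where 8 were above 1, and of 1.12, 1.22 and 1.14 in WT 30 min, KO 30 min and KO 60 min, with 0 called. No marker of these lists was at background throughout. The 10 housekeeping genes had medians between 0.968 and 1.07. Their part in the ratios of Lor, Flg, Krt1 and Krt10 was not tested.

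Over the 4 comparisons, no member had a shared PACAP effect that passed the adjustment. In limma 0 of 30357 probes (0%) passed, 679 (2.24%) had an unadjusted p below 0.05, and 4 of these were members, with mean log2 ratios of 1.69 for Lce3a (SE 0.62), 0.81 for Tchhl1 (SE 0.28), 0.43 for Sprr4 (SE 0.16) and 0.39 for Sprr1a (SE 0.14). The difference between 60 and 30 min passed for 0 probes (0%), with 483 (1.59%) and 0 members at an unadjusted p below 0.05. Its leading members were Lor (0.58, SE 0.29), Sprr1a (0.48, SE 0.24) and Rptn (0.54, SE 0.34). For the contrast of genotype by time, which sets WT at 60 min and KO at 30 min against WT at 30 min and KO at 60 min, again 0 probes (0%) passed and 2187 (7.2%) had an unadjusted p below 0.05. Sprr4 (0.70, SE 0.18), Tchhl1 (1.15, SE 0.34) and Kprp (-0.59, SE 0.19) led the members, with an adjusted p of 0.62 for each in limma.

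Levels were also compared between genotypes over the 8 RNA samples, with time and treatment in the limma fit. The vehicle and PACAP samples of a comparison share their arrays, so the 8 samples are 4 pairs, and the fit treats them as separate. Only 1 of 47 member probes differed, against 10.4% of all 37761 probes tested (5.66% higher and 4.7% lower in KO), and 7 of 47 had an unadjusted p below 0.05, against 30.2%. This was the dim probe of Lelp1, higher in KO by 0.24 (SE 0.04, adjusted p = 0.0246, limma), at levels of 6.10 to 6.15 in WT and 6.31 to 6.45 in KO. It was well above background on 1 array of 2 in 7 of the 8 samples, and the brighter Lelp1 probe spanned 12.09 to 12.37 in WT and 11.85 to 12.34 in KO. With processed signals the difference was 1.34 (adjusted p = 0.00814, limma), so its size depends on how the signals were processed. With the shared arrays as a random block, a fit chosen after seeing the data, it held (adjusted p = 0.0408, limma). It was lost in the 4 vehicle samples alone, where 0 of all probes passed and 5425 had an unadjusted p below 0.05, and on leaving out any 1 of the samples other than the KO PACAP sample at 30 min. Next came Lce1m (-0.25, SE 0.06, adjusted p = 0.06) and Sprr4 (0.52, SE 0.13, adjusted p = 0.068), which limma did not call. No Lce3 level passed in this fit.

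Between 60 and 30 min, 3 of 47 member probes differed in level, against 16.8% of all probes (9.72% higher and 7.13% lower at 60 min). At an unadjusted p below 0.05 there were 9 of 47, against 35.1%. Sprr4 was higher at 60 min by 1.03 (SE 0.13, adjusted p = 0.011, limma), in each of the 4 pairs of matched samples. Its level rose from 7.84 to 8.50 in WT vehicle, from 7.91 to 9.10 in WT PACAP, from 7.93 to 9.37 in KO vehicle and from 8.64 to 9.49 in KO PACAP skin. Lce1k was lower by 0.25 (SE 0.03, adjusted p = 0.0126, limma), also in each of the 4 pairs. The downstream probe of Tgm3 was higher by 0.28 (SE 0.04, adjusted p = 0.0147, limma), whereas its upstream probe was lower in 3 of 4 pairs. Rptn was lower at 60 min in WT skin by 1.24 with vehicle and 1.30 with PACAP, but in KO skin it was lower by 0.24 with vehicle and higher by 0.85 with PACAP. This difference between genotypes was not tested. Sebaceous gland markers also had higher summed log2 levels at 60 min in all 4 pairs, at 14.65 and 14.87 in WT vehicle, 14.73 and 15.03 in WT PACAP, 14.67 and 14.93 in KO vehicle and 14.75 and 15.01 in KO PACAP skin for 30 and 60 min, and their part in the Sprr4 level was not tested. With processed signals in place of normexp and loess, Sprr4 kept its call (1.21, adjusted p = 0.00754, limma), while Lce1k (adjusted p = 0.208) and Tgm3 (adjusted p = 0.0643) lost theirs. With the shared arrays as a random block the Sprr4, Lce1k and Tgm3 calls held, with adjusted p of 0.0206, 0.0234 and 0.0245 in limma. In the 4 vehicle samples alone 0 of all probes passed, with 8703 at an unadjusted p below 0.05. These calls were also lost without the WT PACAP or the KO vehicle sample at 60 min, with adjusted p of 0.055 and 0.050 for Sprr4 in limma. Within the WT slide alone 0 probes passed in limma, with an adjusted p of 0.056 for Rptn and 14008 of 37763 probes at an unadjusted p below 0.05.

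The probes of Flg and Tgm3 disagreed along the gene. The most upstream Flg probe was lower at 60 min in all 4 pairs, by 1.24, 1.52, 0.79 and 0.10 in WT vehicle, WT PACAP, KO vehicle and KO PACAP skin. The middle probe was lower by 0.63, 0.78, 0.61 and 0.06. The most downstream probe changed by 0.01, -0.29, -0.37 and 0.35. The limma differences of the upstream probes were -0.91 (SE 0.24, adjusted p = 0.058) and -0.52 (SE 0.13, adjusted p = 0.053), and neither passed. With processed signals the most upstream probe passed (-0.98, SE 0.23, adjusted p = 0.0373, limma), and both upstream probes were called without the KO PACAP sample at 30 min. Over 4020 genes with a pair of probes 1000 to 1000000 bp apart, the change of the probe nearer the 5′ end minus that of the probe nearer the 3′ end had a median of 0.04 in WT vehicle, 0.12 in WT PACAP, 0.11 in KO vehicle and -0.04 in KO PACAP skin. The difference was below 0 in 43.0%, 33.4%, 33.3% and 56.8% of these genes, and the cause of the Flg pattern was not tested.

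**Figure D5:**
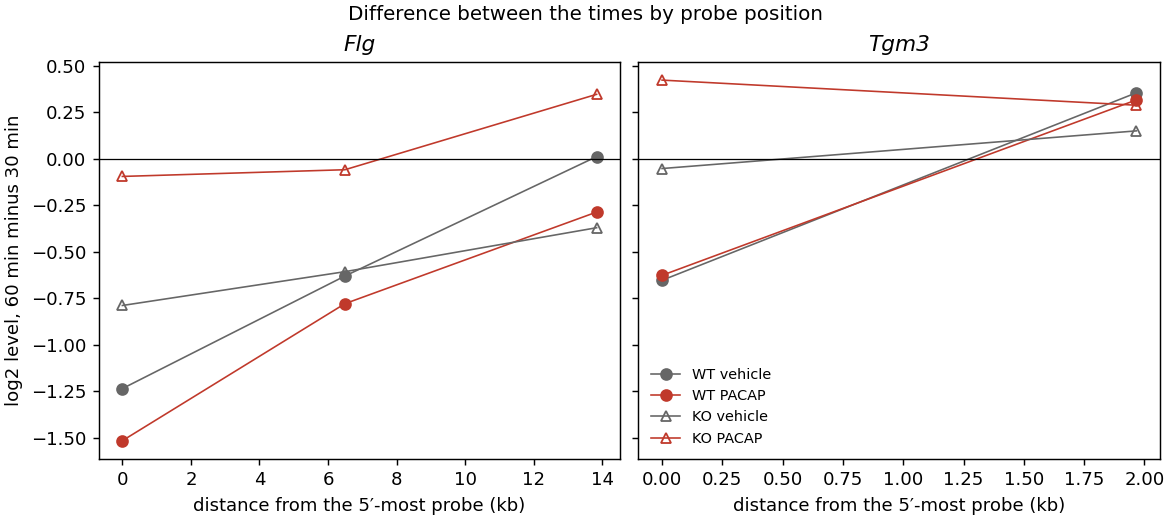
Difference in log2 level between 60 and 30 min (y axis) at each probe of Flg and Tgm3, by distance from the most upstream probe in kb (x axis); each point is the difference of 2 RNA samples, for WT (filled circles) and KO (open triangles) with vehicle in grey and PACAP in red. In Flg the most upstream probe lies lowest in all 4 pairs, at -1.52 in WT PACAP skin.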

How the data were processed

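Forepaw skin RNA of 8 samples was hybridised as 4 dye-swapped pairs. The authors read the scans with Agilent Feature Extraction, for which the file headers name version 12.0.3.1 and the submitters' processing notes 11.0.1.1, while the study's methods name another version. The deposited log10 ratios (red over green) come from background-corrected signals that the authors' software normalised by LOWESS, array by array. A spot's deposited p-value is that software's error estimate for 1 array. The deposited intensity values are mean, local background and processed signals. On each array 78.6% to 94.5% of spots exceeded background clearly in red and 54.0% to 65.3% in green, and 0 were saturated.

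Control spots (1377) and outlier spots (198 to 342 per array) were left out. Ratios were turned to PACAP over vehicle by the dye labels and averaged over spots and arrays. The software sets 13.4% to 25.0% of log ratios to 0, which pulls dim probes towards no change. Levels used normexp (offset 50), loess and Aquantile in limma 3.58.1 (R 4.3.3). Fits of ratios used 30357 probes for which, on each array, one of the channels exceeded background and which had a value in every comparison, and fits of levels 37761 with any such channel, with lmFit, eBayes and Benjamini-Hochberg adjustment. Gene values are those of the brightest probe. Members and lists were chosen with earlier results of these data known. The named genes are the 18 of the rule, each Lce gene called, the highest and lowest Lce gene of each comparison, the 3 smallest limma p and the list genes called, at most 5 per list. Crct1, Lce1l and the Lce3 genes were described further after their values were seen.

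On simulated data with 200 probes changed by 3 on the log2 scale, the limma fits of ratios found 197 (shared effect, with 7 false calls) and 127 (KO against WT, with 2 false calls) of 30357 probes. This change is larger than any limma difference of a member given above, so these counts do not show what smaller differences would give. The count rule found 200 of 200 probes changed by 2, among 39429. That simulation held only the spread between dye-swap arrays, took p from the same spread and had no spread between animals. Its result therefore says nothing on differences between animals. Alternatives were single arrays, normexp ratios, centring, series matrix ratios (log10, by the authors), filters, covariates and left-out samples.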

Additional observations from a re-analysis of the deposited data

Results flagged for a closer look

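With 2 arrays per comparison and 1 RNA sample for each genotype, time and treatment, no group was large enough for a search for single outlying samples. Results were therefore listed where both arrays lay on one side of no change in WT mice and on the other side in KO mice at the same time, for the classes of genes and for the genes called. These differences were not tested beyond the limma fits, and genotype and slide cannot be told apart.

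At 30 min the median log2 ratio of the Lce3 genes was 0.97 higher in KO than in WT mice (0.74 against -0.23). Lce3a differed by 3.39 (2.64 against -0.75) and Lce3e by 1.23 (0.91 against -0.32). The vehicle levels differed too, with KO minus WT at 30 min of -0.95 for Lce3a and between -0.53 and -0.33 for the other Lce3 genes. With PACAP the level difference at 30 min was 1.98 for Lce3a and between 0.05 and 0.79 for the others. At the same time the class median was lower in KO for the fused-type S100 genes (-0.48), the other envelope genes (-0.41) and the enzymes (-0.57), although the ratios of Tchhl1, Lelp1 and Crct1 were higher in KO. At 60 min the Lce1 median was lower in KO (-0.25), with both medians near no change. The log2 PACAP ratio of Tchhl1 was lower in KO at 60 min (-1.84), at -0.15 in KO and 1.70 in WT mice. The level itself was higher in KO than in WT at 60 min, by 1.68 with vehicle and 0.22 with PACAP. With time as a covariate, the limma test of the difference itself passed for Lce3a (2.56, adjusted p = 0.00256), with 1 residual degree of freedom. Without that covariate no member passed in limma (adjusted p = 0.84 for Lce3a).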

How the results depend on the processing

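The direction of each ratio called by the count rule held under all alternatives run. Tchhl1 in KO at 30 min lost its call with normexp ratios (a log2 ratio of 0.82) and without the array carrying PACAP in Cy3 (0.96). Counts of member probes called lay between 0 and 1 in WT at 30 min, at 2 in WT at 60 min, between 1 and 2 in KO at 30 min and between 2 and 4 in KO at 60 min when either array was left out, where Ivl came in and where Lce3b and Lce3d did. With normexp ratios the count in KO at 30 min was 1. The median log2 ratio of all members lay between 0.10 and 0.11 in WT at 60 min, between -0.019 and -0.00035 in KO at 30 min and between 0.030 and 0.13 in KO at 60 min on single arrays. Normexp ratios gave 0.11 in WT at 60 min and -0.029 in KO at 30 min, and the mean of the probes of a gene gave 0.10 in WT at 60 min. With Lce3b, Lce3c and Lce3d counted as 1 gene, an alternative chosen after seeing the data, the Lce3 median in KO at 30 min was 0.88. With processed signals, also added later, 5 of 6 Lce3 genes still had both KO PACAP samples highest.

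In limma, leaving out a comparison gave between 0 and 1 member probe called for the KO against WT effect (1 without WT at 60 min) and between 0 and 1 for genotype by time (1 without KO at 60 min), Lce3a each time, and time as a covariate gave 1. For levels, leaving out an RNA sample gave between 0 and 1 member probe for genotype and between 0 and 10 for time, with 10 without the KO PACAP sample at 30 min and 0 without the WT PACAP or the KO vehicle sample at 60 min. The 4 vehicle samples alone gave 0 for genotype and 0 for time, and each slide alone gave 0 for time. Over all probes, leaving out a comparison gave between 0 and 170 calls for KO against WT, between 0 and 14 for 60 against 30 min and between 0 and 120 for genotype by time, against 0 in each. Leaving out a sample gave between 0 and 4465 calls on levels for genotype, against 3912, and between 1012 and 12212 for time, against 6362, while the vehicle samples alone gave 0 for both. Calls on Sprr4, Lce1k, Tgm3 and Lelp1 were lost in 5, 7, 9 and 8 of these alternatives without a change of direction. With processed signals the member probes called for time were those of Sprr4 and Flg. The cause was not tested. With the vehicle and PACAP samples that share arrays as a random block, added after seeing the data, calls on levels over all probes numbered 2087 for genotype and 4037 for time, and the counts of member probes stayed at 1 and 3. Vehicle and PACAP RNA are paired within arrays in each ratio. By replicate number, no paired analysis was possible because these numbers mark the dye orientation of 1 pair of RNA samples, not separate samples.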
